A study of Mus musculus with 4 samples.

Results

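Ribosome biogenesis and polyamine growth genes were followed in mouse B cells that received a retrovirus, either with Ascl2 in it (RVKM-Ascl2, 1 library) or with no insert (RVKM-Empty, 1 library). The set was a fixed list of 45 symbols, chosen with earlier results of these data known. A gene was a member when its symbol in the deposited files equalled 1 of these 45. Of these, 44 were found among the 13792 genes of each file. The missing symbol was Utp4, a small-subunit factor that the files list under an older name (Cirh1a, given below). Both libraries came from naive B cells of C57BL/6 mice, an inbred strain, that were infected and kept in culture on antibodies to IgM and CD40, which mimic contact with antigen and with helper T cells. Ascl2 encodes a transcription factor of the basic helix-loop-helix class, and the virus makes the cells express it from the vector rather than from their own locus. The age and sex of the mice, the time in culture and the infected share of the cells were not stated in the labels.

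There was 1 library per group, so no value has a replicate error, no p-value was computed, and every difference below is one between single libraries with nothing to check it against. Values were taken as abundances per gene scaled for depth, which is an assumption because the unit is not named. They summed to 763932 with Ascl2 and 750692 with Empty. Scaling for gene length is taken from the look of the values and is not stated, so levels are compared between genes only on that assumption. Ratios are given as log2((Ascl2 + 1)/(Empty + 1)), called the log2 ratio, and a positive one means higher with Ascl2. The 12283 genes that reached a value of 1 in at least 1 library serve as the background, and all 44 members are among them. Member values ran from 5.27 upwards, so the added 1 matters little for most of them. The files give no read depth, so no counting interval can be attached to a value. In bulk RNA, fewer cells of a type and less RNA per cell cannot be told apart.

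Ribosomes are built in the nucleolus, where RNA polymerase I transcribes a long precursor of the ribosomal RNAs. Small nucleolar RNPs (snoRNPs) modify that precursor, and processing factors cut, fold and package it into the small and the large subunit. Polyamines, small cations made from ornithine and decarboxylated S-adenosylmethionine, rise together with ribosome production in growing cells. Both programmes are textbook targets of Myc and are switched on strongly when B cells are activated.

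The label was checked first. Ascl2 stood at 29.4 in the Ascl2 library, against 0.0809 in the Empty library. All 10 B cell markers used reached the background threshold in both libraries, and 6 of them were lower with Ascl2. Of all background genes 51.6% were lower, which holds beside each marker count here. For example, Ms4a1 was 326 with Ascl2 and 265 with Empty, and Cd79a was 492 with Ascl2 and 665 with Empty. Ighm was 7629 with Ascl2 and 4124 with Empty. Of 8 T cell markers only Lck reached a value of 1, at 17.8 with Ascl2 and 21.7 with Empty, and Zap70 was below it in both. Myeloid markers summed to 50.1 with Ascl2 and 45.2 with Empty over the 6 of 10 that were listed. Of these 5 were higher with Ascl2, and Cd68 was lower, at 10.8 with Ascl2 and 16.2 with Empty. Only Fcer1g was at least 1.5-fold higher, at 9.83 with Ascl2 and 5.71 with Empty. Csf1r and Cd14 lay close to the threshold of 1, and Adgre1 was 5.37 with Ascl2 and 5.30 with Empty. Of 7 plasma cell markers 6 were higher with Ascl2, and Sdc1 was lower, at 2.37 with Ascl2 and 2.99 with Empty. The 7 summed to 1255 with Ascl2 and 969 with Empty. Most of that sum was Mzb1, at 634 with Ascl2 and 594 with Empty, and the median log2 ratio of the 7 was 0.81. Of them 4 were at least 1.5-fold higher and 2 at least 2-fold higher, against 5.01% and 1.53% of the background genes. These were Jchain (301 with Ascl2, 113 with Empty) and Prdm1 (9.23 with Ascl2, 3.10 with Empty) past 2-fold, Prdm1 not so under every setting (0.81 at the least), and Derl3 and Fkbp11 past 1.5-fold. The 2 dendritic cell markers of 5 that reached 1 summed to 24.4 with Ascl2 and 26.6 with Empty, and 3 of 6 erythroid and platelet markers summed to 3.57 with Ascl2 and 3.34 with Empty. Of 6 genes on the stromal list, Thy1 was 346 with Ascl2 and 395 with Empty, but it is not particular to stromal cells. Mouse T cells also carry it, and it was not on the T cell list. Sparc was 4.42 with Ascl2 and 2.19 with Empty, and Col1a1, Col1a2 and Fn1 stayed below 1 in both. The part of these cells in the results below was not tested.

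The upstream sequences of members are shown as a description, since both Myc and Ascl2 bind E-boxes. Whether such motifs bear on the ratios was not tested. RefSeq promoter windows (GRCm38.p6, the assembly called mm10) were found for 37 of the 44 measured members, and the 250 bases before each annotated start were searched. The motifs were CACGTG, the E-box best known for Myc and Max, CAGCTG, an E-box form known for Ascl factors and E proteins, and the general form CANNTG, which contains both. Each reads the same on both strands. In the windows below, CACGTG and CAGCTG are in capitals. Ppan (chr9:20887925-20888174 on the plus strand) and Gnl3 (chr14:31019132-31019381 on the minus strand) stand for the low and the high end of the ratios. Nop2 (chr6:125131633-125131882 on the plus strand) holds CACGTG, and Rrp9 (chr9:106477059-106477308 on the plus strand) and Ddx21 (chr10:62602299-62602548 on the minus strand) hold CAGCTG.
Ppan: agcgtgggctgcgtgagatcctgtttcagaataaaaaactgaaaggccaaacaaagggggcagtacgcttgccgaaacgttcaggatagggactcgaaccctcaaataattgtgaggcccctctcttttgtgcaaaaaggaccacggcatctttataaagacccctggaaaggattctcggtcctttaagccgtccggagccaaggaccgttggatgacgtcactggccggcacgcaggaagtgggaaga
Rrp9: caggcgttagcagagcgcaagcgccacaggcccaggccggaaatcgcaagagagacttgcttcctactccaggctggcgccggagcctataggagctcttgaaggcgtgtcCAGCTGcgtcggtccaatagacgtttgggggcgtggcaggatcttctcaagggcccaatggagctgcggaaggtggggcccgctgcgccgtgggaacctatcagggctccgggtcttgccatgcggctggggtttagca
Nop2: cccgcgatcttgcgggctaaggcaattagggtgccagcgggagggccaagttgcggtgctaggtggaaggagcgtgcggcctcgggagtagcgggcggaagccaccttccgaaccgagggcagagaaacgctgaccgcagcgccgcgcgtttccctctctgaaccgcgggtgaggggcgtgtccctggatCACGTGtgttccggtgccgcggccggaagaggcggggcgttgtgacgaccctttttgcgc
Ddx21: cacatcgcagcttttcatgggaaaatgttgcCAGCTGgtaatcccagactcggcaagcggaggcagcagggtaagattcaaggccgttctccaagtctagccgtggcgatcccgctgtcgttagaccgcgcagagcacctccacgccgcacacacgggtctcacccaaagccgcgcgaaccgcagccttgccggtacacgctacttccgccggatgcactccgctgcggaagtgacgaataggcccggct
Gnl3: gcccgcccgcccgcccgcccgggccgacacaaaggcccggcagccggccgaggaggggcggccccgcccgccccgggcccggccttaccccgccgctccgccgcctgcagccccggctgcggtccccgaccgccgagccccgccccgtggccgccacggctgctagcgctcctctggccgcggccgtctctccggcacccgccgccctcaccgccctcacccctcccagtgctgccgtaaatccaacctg

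CACGTG was present upstream of 2 of these 37 members, Nop2 at 60 and Sms at 196 bases before the start. That is 5.41% of them, against 10.3% of the 8629 background genes and 6.86% of all 27025 genes with a window. CAGCTG was found in 7 members (18.9%), against 13.4% of background genes and 14.7% of all genes. Counted per window, it was in 14.9% of the 47 member windows and 13.0% of all 32851 windows. The 7 were Rrp9, Gar1, Noc3l, Pes1, Ubtf, Nop14 and Ddx21, and their log2 ratios ran from -0.32 to 0.08 with 5 below 0 and a median of -0.05. Among the 30 members without CAGCTG, 23 were below 0 and the median was -0.17. Any E-box form was found in 20 members (54.1%), against 61.1% of background genes and 69.3% of all genes. Per gene, several windows counted once if any of them held the motif. These are matches of letters in 1 short window, and E-boxes elsewhere in the genes were not searched. Srm, Fbl, Npm1, Bop1, Rrs1, Rrp12 and Tcof1 had no window in the table.

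As a set, the members were slightly lower with Ascl2. They were chosen with earlier results of these data known, so their comparison with the background is a description only. Of 44, 34 had a log2 ratio below 0 and 10 above, which is 77.3% below against 51.6% of all background genes. Their median log2 ratio was -0.16, with an interquartile range from -0.36 to -0.04, while the background median was -0.01. Highly expressed genes leaned the same way in these libraries. Among the 4887 genes that reached a value of 20, the median was -0.06 and 57.8% lay below 0, and among the 2146 that reached 50 the median was -0.08.

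The shift consisted of many small differences. Only Srm and Fbl were at least 1.5-fold lower with Ascl2, which is 4.55% of members against 4.31% of background genes, so their number is near the background. No member was at least 1.5-fold higher, a level passed by 5.01% of background genes. None was past 2-fold either way, against 0.716% of background genes lower and 1.53% higher. Within 0.2 of a log2 ratio of 0 lay 23 members of 44, and 48.6% of background genes.

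The summed abundance of the 44 members did not show the shift. It came to 4349 with Ascl2 and 4310 with Empty, or 0.569% of all values with Ascl2 and 0.574% with Empty. Npm1 alone supplied 48.9% of that sum with Ascl2 and 43.4% with Empty, and it was higher with Ascl2. Without Npm1 the members took 0.291% of all values with Ascl2 and 0.325% with Empty.

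**Figure D1:**
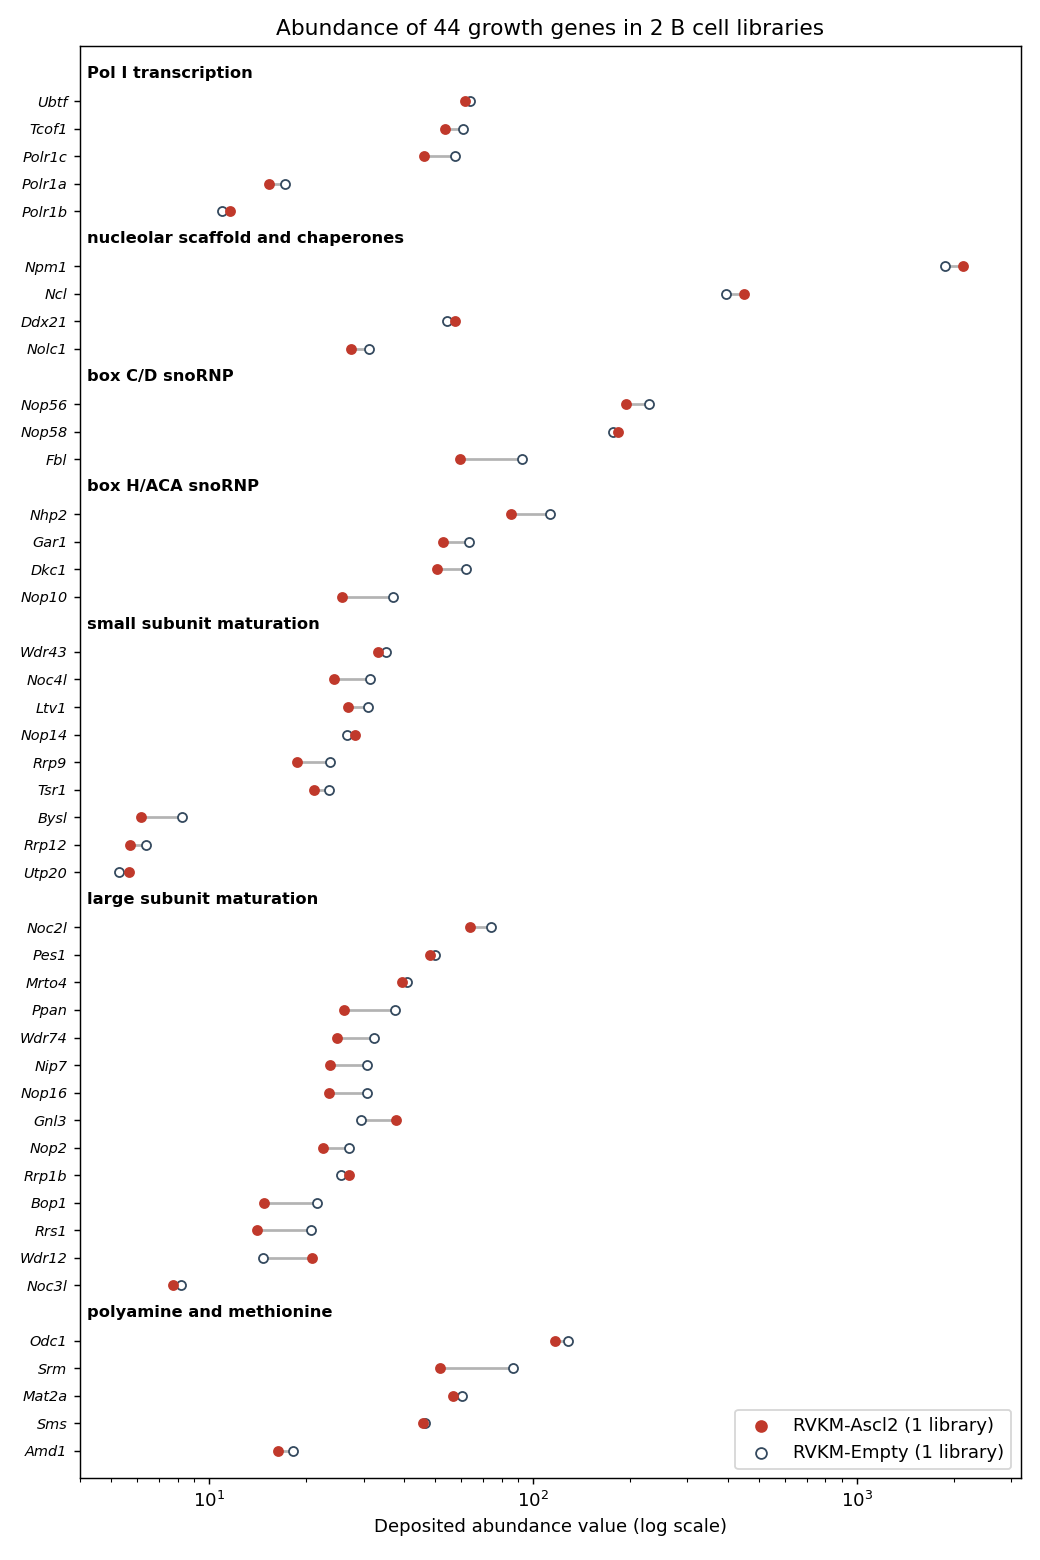
Deposited abundance (log scale) of each of the 44 members, grouped by role; filled red points are the RVKM-Ascl2 library and open points the RVKM-Empty library, 1 library each. The Ascl2 point lies left of the Empty point in 34 rows, and the widest gap is that of Srm, at 51.7 with Ascl2 and 86.6 with Empty.

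RNA polymerase I transcription comes first in the pathway. Its largest subunit gene, Polr1a, was 15.3 with Ascl2 and 17.1 with Empty (log2 ratio -0.15). Polr1b, the second-largest subunit, was 11.6 with Ascl2 and 11.0 with Empty (0.07). Polr1c, a subunit shared by polymerases I and III, was 46.0 with Ascl2 and 57.6 with Empty (-0.32), the lowest ratio of the group. Ubtf, the architectural factor of active ribosomal DNA, was 61.8 with Ascl2 and 63.8 with Empty (-0.04). Tcof1, the treacle protein that joins polymerase I transcription to early processing, was 53.6 with Ascl2 and 60.7 with Empty (-0.18). Thus 4 of 5 were lower with Ascl2, with a group median of -0.15, although Ubtf changed sign when the trend of the ratio with level was removed. Over all settings tried the median ran from -0.18 to -0.093.

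The abundant nucleolar scaffold genes were the one group with a median above 0, at 0.13 (0.10 to 0.23 over the settings tried), and 3 of its 4 genes were higher with Ascl2. Npm1, which encodes the histone chaperone and nucleolar scaffold nucleophosmin, was 2126 with Ascl2 and 1872 with Empty (0.18). It held rank 46 of 13792 genes with Ascl2 and rank 58 with Empty. Ncl, which encodes nucleolin, was 447 with Ascl2 and 395 with Empty (0.18). Ddx21, an RNA helicase that links polymerase I with snoRNAs, was 57.4 with Ascl2 and 54.2 with Empty (0.08). Nolc1, a chaperone of snoRNPs, went the other way at 27.4 with Ascl2 and 31.2 with Empty (-0.18). Processed pseudogenes of abundant genes such as Npm1 can share reads with it, and how the counting treated them is not known.

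The box C/D snoRNP, which places methyl groups on ribosomal RNA, showed unequal values for its parts. Fbl, the methyltransferase fibrillarin (ENSMUSG00000046865, chromosome 7, 28168893 to 28179269), was 59.4 with Ascl2 and 92.5 with Empty (-0.63). Its scaffold partner Nop56 was 194 with Ascl2 and 228 with Empty (-0.23), and the other scaffold protein, Nop58, was 183 with Ascl2 and 176 with Empty (0.05). A ratio of partners within 1 library does not move when a library is rescaled. Fbl over Nop58 was 0.325 with Ascl2 and 0.525 with Empty, and Fbl over Nop56 was 0.306 with Ascl2 and 0.406 with Empty. RefSeq names 1 Fbl pseudogene, so reads may have been shared with it.

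The 4 core genes of the box H/ACA snoRNP, which converts uridine to pseudouridine, were all lower with Ascl2, with the lowest median of any role group (-0.34, and -0.23 with the trend along genomic span removed). Dkc1, the pseudouridine synthase dyskerin, was 50.7 with Ascl2 and 62.3 with Empty (-0.29). Gar1 was 52.7 with Ascl2 and 63.3 with Empty (-0.26). Nhp2, which binds the guide RNA, was 85.7 with Ascl2 and 113 with Empty (-0.40), and the small subunit Nop10 was 25.8 with Ascl2 and 37.0 with Empty (-0.50). The group has only 4 genes, and each is within 1.5-fold.

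**Figure D2:**
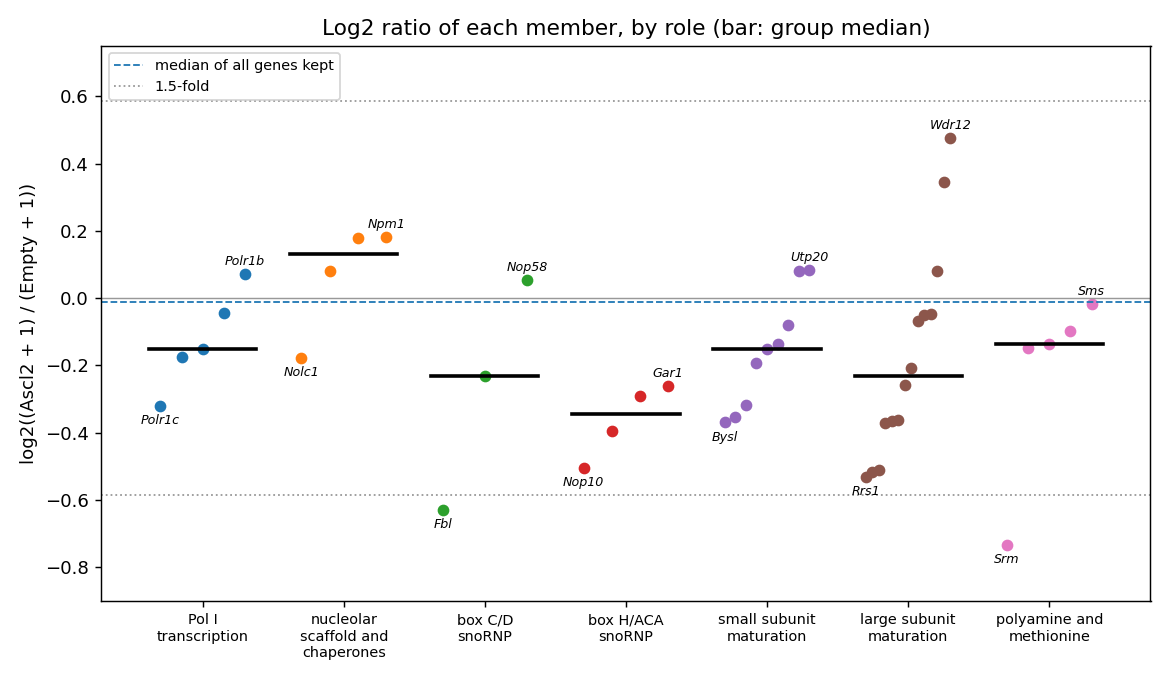
Log2 ratio of the Ascl2 over the Empty value (each plus 1) for every member, 1 point per gene, in 7 role groups with a bar at the group median; the dashed line is the median of all 12283 background genes (-0.01) and dotted lines mark 1.5-fold. The medians lie below 0 in 6 groups, and only Srm and Fbl pass the lower dotted line.

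Small-subunit genes leaned lower by little, with 7 of 9 below 0 and a median of -0.15. Bysl, which encodes bystin, was 6.18 with Ascl2 and 8.28 with Empty (-0.37). Noc4l, a partner of Nop14, was 24.3 with Ascl2 and 31.4 with Empty (-0.36), whereas Nop14 itself was 28.3 with Ascl2 and 26.7 with Empty (0.08). Rrp9, a protein of the U3 snoRNP, was 18.7 with Ascl2 and 23.6 with Empty (-0.32). The remaining lower genes were Ltv1 (26.9 with Ascl2, 30.9 with Empty), a late assembly factor, Tsr1 (21.1 with Ascl2, 23.5 with Empty), a GTPase-like factor of late pre-ribosomes, Rrp12 (5.70 with Ascl2, 6.37 with Empty), a HEAT-repeat export factor, and Wdr43 (33.2 with Ascl2, 35.1 with Empty), part of the early processome.
Utp20, a very large scaffold protein of the early processome and the least abundant member, was 5.65 with Ascl2 and 5.27 with Empty (0.08). The identifier listed as Cirh1a (ENSMUSG00000041438), which the reference table calls Utp4, was 26.8 with Ascl2 and 31.5 with Empty (-0.23). It is not counted among the 44.

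Large-subunit genes held both the widest range and the highest ratios, from -0.53 to 0.48, with 11 of 14 below 0 and a median of -0.23. Pes1 and Mrto4 lay so close to 0 that each changed sign when 1 of the trends described below was removed. Rrs1, which helps bring the 5S RNP into the large subunit, was 14.0 with Ascl2 and 20.7 with Empty (-0.53). Ppan, the peter pan homologue, was 26.0 with Ascl2 and 37.5 with Empty (-0.51). Nop16 was 23.5 with Ascl2 and 30.7 with Empty (-0.37), Nip7 was 23.6 with Ascl2 and 30.7 with Empty (-0.37), and Wdr74 was 24.9 with Ascl2 and 32.3 with Empty (-0.36). Nop2, a cytosine methyltransferase of the large ribosomal RNA whose CACGTG window is shown above, was 22.5 with Ascl2 and 27.1 with Empty (-0.26).
Noc2l was 64.1 with Ascl2 and 74.2 with Empty (-0.21), and its partner Noc3l was 7.76 with Ascl2 and 8.19 with Empty (-0.07). Mrto4, a relative of the ribosomal stalk protein P0, differed little, at 39.3 with Ascl2 and 40.8 with Empty (-0.05), and so did Rrp1b, at 27.0 with Ascl2 and 25.5 with Empty (0.08). The nucleolar GTPase gene Gnl3, which encodes nucleostemin, was the second-highest member at 37.8 with Ascl2 and 29.5 with Empty (0.35).

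The PeBoW complex of Pes1, Bop1 and Wdr12, needed to mature the large-subunit RNA, had partners at opposite ends of the list. Bop1 was 14.8 with Ascl2 and 21.6 with Empty (-0.52), the fourth-lowest ratio. Pes1 was 48.2 with Ascl2 and 49.8 with Empty (-0.05). Wdr12 (ENSMUSG00000026019, chromosome 1, 60071361 to 60098500) was 20.8 with Ascl2 and 14.7 with Empty, the highest ratio of all members (0.48). Wdr12 over Bop1 was therefore 1.41 with Ascl2 and 0.680 with Empty, so the order of these partners differed between the libraries. All partner ratios given, here and for the box C/D and polyamine genes, were chosen after the values were seen. Some other pairs differed less between the libraries. Noc2l over Noc3l was 8.26 with Ascl2 and 9.06 with Empty, and Polr1b over Polr1a was 0.757 with Ascl2 and 0.640 with Empty.

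The polyamine and methionine genes were all on the lower side, 5 of 5, with a median of -0.14, though Sms and Mat2a changed sign when a trend was removed and Sms also under 1 rescaling. The median was -0.040 with the level trend removed and -0.059 with the span trend removed. Srm, spermidine synthase (ENSMUSG00000006442, chromosome 4, 148591513 to 148594619), was 51.7 with Ascl2 and 86.6 with Empty, the lowest ratio of the 44 (-0.73). Of the background genes, 2.06% had a lower ratio. Odc1, ornithine decarboxylase, which opens the pathway, was 117 with Ascl2 and 128 with Empty (-0.14). Amd1, which makes the decarboxylated S-adenosylmethionine that both synthases use, was 16.3 with Ascl2 and 18.2 with Empty (-0.15). Mouse Amd2 is a near-identical copy of Amd1, so the Amd1 value is uncertain. Mat2a, which makes S-adenosylmethionine, was 56.5 with Ascl2 and 60.5 with Empty (-0.10), and Sms, spermine synthase, was 45.8 with Ascl2 and 46.3 with Empty (-0.02). Srm over Sms was 1.13 with Ascl2 and 1.87 with Empty.

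Genes around the polyamine enzymes that are not members went both ways, with 7 of 15 measured below 0 (46.7%, against 51.6% of background genes). Oaz1 and Dohh were at least 1.5-fold lower, 13.3% of the 15 against 4.31% of background genes, but each fell short of that under another setting, with log2 ratios up to -0.43 for Oaz1 and -0.45 for Dohh. Oaz1, the antizyme that sends ornithine decarboxylase to the proteasome, was 111 with Ascl2 and 169 with Empty. Azin1, the antizyme inhibitor, was 46.5 with Ascl2 and 32.0 with Empty, and Oaz1 over Azin1 was 2.40 with Ascl2 and 5.29 with Empty. The related Oaz2 was 18.0 with Ascl2 and 17.4 with Empty, and Azin2 was 11.9 with Ascl2 and 17.9 with Empty.
Small groups of these 15 lay on 1 side, although the list as a whole went both ways. All 3 measured genes of polyamine breakdown were higher with Ascl2. Sat1, the acetyltransferase that starts it, was 42.1 with Ascl2 and 31.9 with Empty, Paox was 6.17 with Ascl2 and 4.65 with Empty, and Smox was 2.20 with Ascl2 and 1.89 with Empty. Smox is close to the threshold for low genes. The 3 genes of hypusine formation, a protein modification made from spermidine, were all lower with Ascl2. Eif5a, the modified translation factor, was 376 with Ascl2 and 523 with Empty, Dhps was 13.7 with Ascl2 and 16.6 with Empty, and Dohh was 16.1 with Ascl2 and 25.5 with Empty. Of the rest of the list, Ahcy was 66.5 with Ascl2 and 85.5 with Empty, and Atp13a2 was 19.8 with Ascl2 and 23.5 with Empty. Atp13a3 was 23.4 with Ascl2 and 19.5 with Empty, and Mat2b and Mtap differed little. Oaz1 and Eif5a have processed copies in the genome, and how reads were divided is not known.

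**Figure D3:**
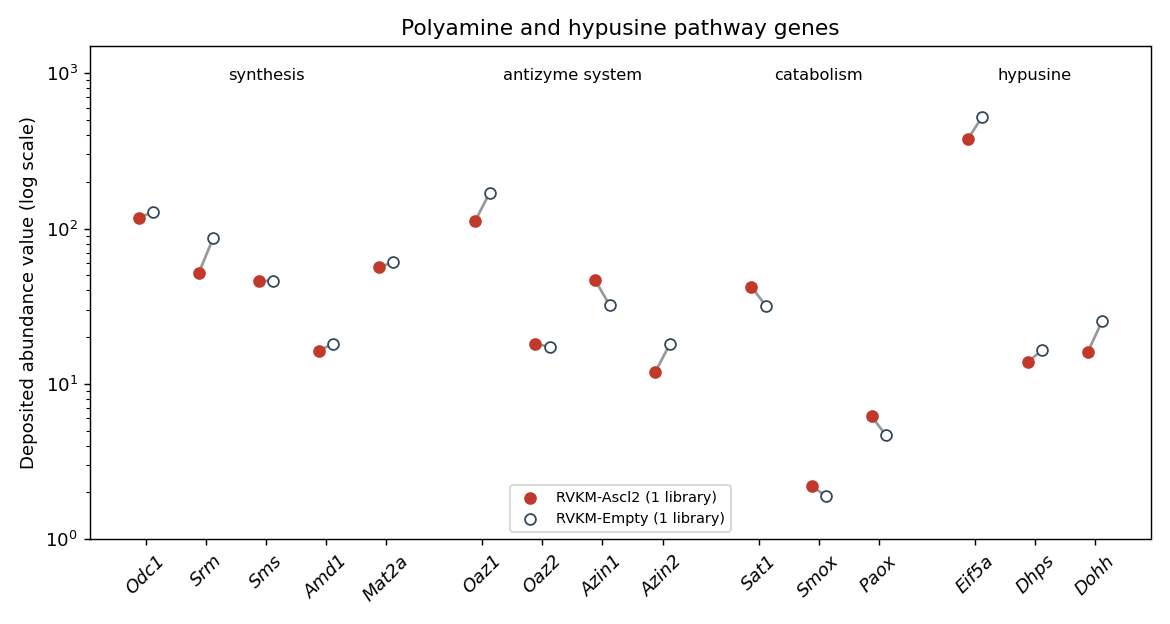
Deposited abundance (log scale) of polyamine synthesis genes, the antizyme system, polyamine breakdown and hypusine formation; for each gene the filled red point is the RVKM-Ascl2 library and the open point beside it the RVKM-Empty library, 1 library each. Srm, Oaz1, Azin2, Eif5a, Dhps and Dohh are lower with Ascl2, while Azin1, Sat1 and Paox are higher.

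A wider list of 118 other ribosome biogenesis genes, written by role, stood between the members and the background of all genes kept. It had 112 genes measured, 72 of them below 0 (64.3%), with a median log2 ratio of -0.06. That median was -0.028 under 1 rescaling, -0.036 with the level trend removed and -0.035 with the span trend removed. The 4887 background genes that reached a value of 20 had nearly the same median, -0.06, with 57.8% below 0. At least 1.5-fold lower were 2 of them, Rrp7a, a small-subunit factor at 16.3 with Ascl2 and 29.3 with Empty, and Eif6, which keeps immature large subunits from joining, at 33.2 with Ascl2 and 52.8 with Empty. They are 1.79% of the list, against 4.31% of background genes, and Eif6 fell short of 1.5-fold under another setting (-0.52). None was at least 1.5-fold higher. By step, the medians were 0.06 for 8 other polymerase I genes, -0.12 for 9 other snoRNP genes, -0.04 for 45 small-subunit genes and -0.10 for 50 large-subunit genes. Over the settings tried these ran from 0.033 to 0.091, from -0.21 to -0.086, from -0.064 to -0.0023 and from -0.12 to -0.037, in the same order. Of the 9 other snoRNP genes, Naf1 (10.9 with Ascl2, 10.1 with Empty) and Shq1 (4.30 with Ascl2, 3.69 with Empty) were higher with Ascl2. The 7 lower ones included the assembly ATPases Ruvbl2 (38.5 with Ascl2, 54.6 with Empty) and Ruvbl1 (28.8 with Ascl2, 35.9 with Empty). At the other end, the helicase gene Ddx52 was 37.3 with Ascl2 and 27.7 with Empty, and Taf1d, of the polymerase I selectivity factor, was 224 with Ascl2 and 187 with Empty.

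**Figure D4:**
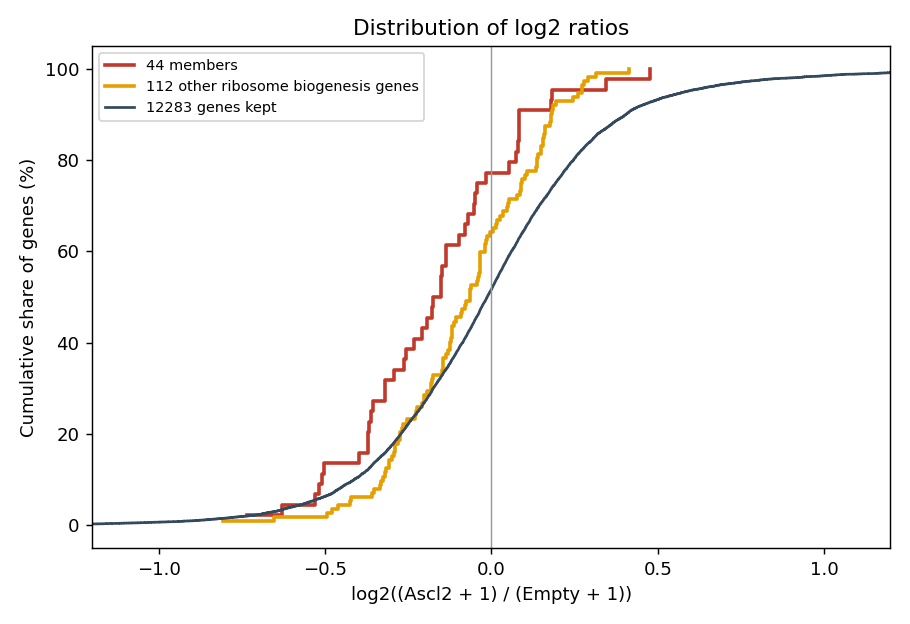
Cumulative share of genes (%) against the log2 ratio of Ascl2 over Empty for the 44 members, 112 other ribosome biogenesis genes and all 12283 background genes. At a ratio of 0 the curves stand at 77.3% for members, 64.3% for the other ribosome biogenesis genes and 51.6% for the background, and the members' curve ends at 0.48.

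Regulators of the programme showed small differences as well. Myc was 75.7 with Ascl2 and 84.3 with Empty, a difference that vanished with the span trend removed, and its partner Max was 40.5 with Ascl2 and 49.2 with Empty. Of 12 measured genes of the Myc network 8 were below 0 (66.7%, against 51.6% of background genes). Their median was -0.17, or -0.072 with the span trend removed. Only Mycl was at least 1.5-fold lower, at 0.840 with Ascl2 and 1.9996 with Empty. That is 8.33% of the list against 4.31% of background genes, and its log2 ratio ran from -1.16 to -0.26 over the settings; its level is close to the threshold for low genes. Mxd1, an antagonist of Myc, was 4.62 with Ascl2 and 3.53 with Empty, Mxd4 was 10.1 with Ascl2 and 11.6 with Empty, and the Max-binding repressor Mga was 23.3 with Ascl2 and 18.2 with Empty. In the mTOR growth pathway 9 of 12 genes were below 0 (75%, against 51.6%), with a median of -0.15, or -0.087 with the span trend removed. The lowest was the stress-induced inhibitor Sesn2, at 22.9 with Ascl2 and 32.8 with Empty, and the highest was Tsc1, another inhibitor, at 14.5 with Ascl2 and 11.9 with Empty. Both the Myc and the mTOR list hold activators and inhibitors, so these counts give no direction for a pathway.

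The ratios of members followed the genomic span of the gene. Across the 44 members the Spearman rho of log2 ratio and span was 0.63, given as a description of genes measured in the same 2 libraries. It was 0.19 over the 11579 background genes with a known span, or 0.25 without immunoglobulin genes. The 22 members with spans of up to 12162 bases had a median of -0.34, with 2 of them above 0, and the 22 longer ones had a median of -0.06, with 8 above 0. Nop10, at 973 bases the shortest member, was among the lowest, and Utp20, at 80208 bases the longest, was above 0. Bop1 and Gnl3 went against this relation. With the trend of all genes along span taken out, the members' median was -0.12 and 32 of 44 were below 0, while 49.1% of the background was. Neither Srm nor Fbl was then 1.5-fold lower. Mean level was nearly unrelated to the ratio among members (rho 0.04). Over the 12283 background genes that rho was -0.11, or -0.14 without immunoglobulin genes. With the level trend removed the members' median was -0.13, and 31 of 44 were below 0, against 49.0% of the background.

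**Figure D5:**
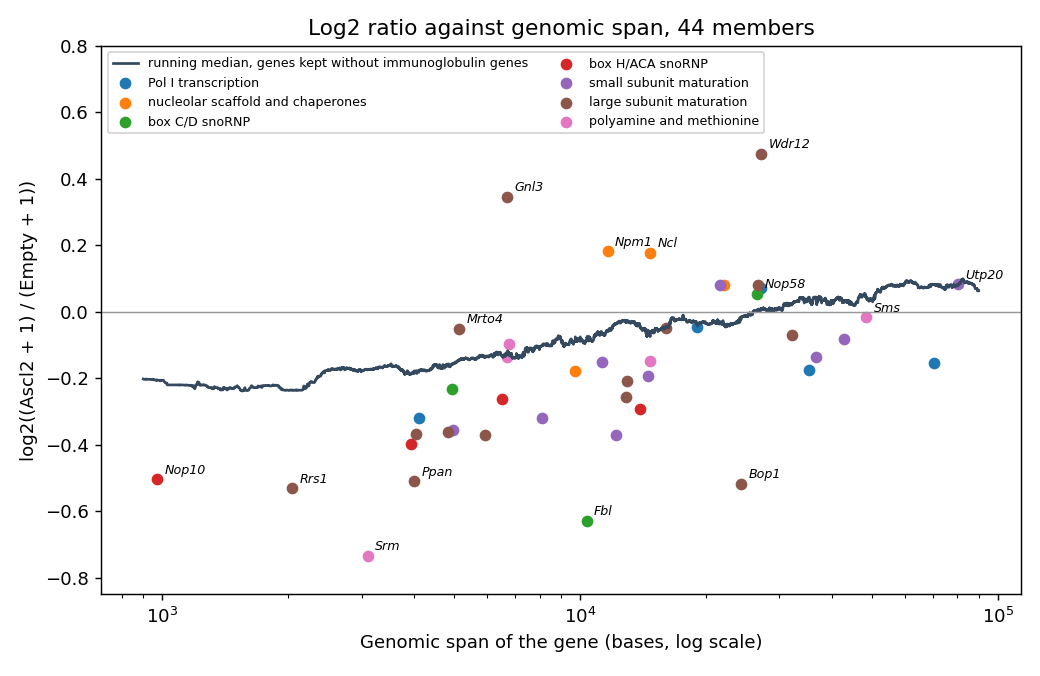
Log2 ratio of Ascl2 over Empty against genomic span in bases (log scale) for the 44 members, coloured by role; the line is the running median of background genes without immunoglobulin genes. Of the 44 points 32 lie below the line, the short genes Srm, Rrs1, Ppan and Nop10 far below 0, and Wdr12 and Gnl3 lie highest.

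Several members carry snoRNA genes inside their own span, a known arrangement in which introns of growth genes give rise to guide RNAs. By the RefSeq annotation 9 of 44 did, among them Nop56 with Snord57 and Snord110, Nop58 with Snord11 and Snord70, Gnl3 with Snord19 and Snord69, Ncl with Snora75 and Snord82, and Wdr43 with Snord53 and Snord92. These 9 had a median log2 ratio of -0.14 with 6 below 0, and the other 35 had a median of -0.18 with 28 below 0. The same count was not made for background genes, so 9 of 44 cannot be called more or less than usual. The annotation used gives no strand, and the snoRNAs themselves were not followed.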

How the data were processed

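RNA was measured in 1 RVKM-Ascl2 and 1 RVKM-Empty library, grouped by the sample titles; the 2 chromatin samples were left aside. Each deposited file pairs a gene with a signal, which was assumed to be scaled for depth. What the unit is called, which program and annotation made it and whether strand was used is not stated. The submitters' processing notes name mm10, Trim Galore, Bowtie2, Picard and MACS2, with no versions or roles. Each file lists 13792 genes, none at 0, and the read depth behind them is unknown.

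Log2 ratios used a pseudocount of 1, and the 12283 genes that reached 1 in either library were kept. With single libraries no test was run. Members and lists were chosen with earlier results of these data known. Members were matched by the symbol in the files, other lists also by reference symbol. All members may be named, as may polyamine, Myc network and marker genes. From other lists the 3 highest and 3 lowest ratios may be named. Spans, positions and promoter windows are from RefSeq (GRCm38.p6), and trends were running medians over 500 genes, without immunoglobulin genes. Only the ratio step and the removal of a trend with level were tried on simulated data, with planted changes larger than any of the members. Shifts as small as those of the members were not simulated. Python 3.11.15, pandas 2.3.3 and NumPy 2.4.6 were used. One marker gene is not reported here.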

Additional observations from a re-analysis of the deposited data

How the results depend on the processing

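The settings varied were the pseudocount (0.1 or 5), the filter (none or 5), the scale of the Ascl2 library (3 ways), and removal of the trend of the ratio with level or with genomic span. The members' median stayed below 0 under all of them, between -0.19 and -0.12, also as a mean (-0.17), with Utp4 matched by identifier, and without the polyamine genes (-0.18). Between 31 and 34 of 44 members were below 0. Of the 34 lower members, 29 kept their sign under all 9 settings. Pes1, Mrto4, Ubtf, Sms and Mat2a did not, and all 10 higher ones did. With the level trend removed 1 member was at least 1.5-fold lower and the box C/D median was -0.12. With the span trend removed the number was 0, the box C/D median -0.074 and the box H/ACA median -0.23. The median of the polyamine partners, 0.02, was -0.11 with a filter of 5, -0.0079 with the library sums made equal and -0.014 with the span trend removed. The members' share of all values was 0.992 times that with Empty, and 1.04 times without immunoglobulin genes and the most abundant gene. Leaving out Npm1, chosen after the data were seen, gave 0.896 times. For the moved values the cause was not tested. No paired analysis was possible because each group has 1 library. Without replicates and read counts, small differences of single genes cannot be set against an error.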
